A study of Mus musculus with 2 samples.

Results

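The mouse genome carries 3 short runs of microRNA (miRNA) genes with the same plan, in which a gene of the miR-99/100 family is followed by a let-7 gene and a miR-125 gene. The genes described here are Mir99a, Mir99b, Mir100, Mir125a, Mir125b-1 and Mir125b-2, chosen by symbol, together with Gm25927, an annotated miRNA gene on the strand opposite to Mirlet7e. They are 7 of the 1973 gene identifiers in the count tables. The first 6 were read on their own strand, and Gm25927 was read on its opposite strand, because that is the strand on which Mirlet7e lies and Mirlet7e itself has no line in the tables. Small RNA of under 30 nucleotides was sequenced from the whole thymus (2 lobes) of mice of strain B6NCrl on postnatal day 0, where T cells develop within a framework of epithelial, mesenchymal and vessel cells. The study has 1 group of 2 libraries, from pup 2 (replicate 1) and pup 3 (replicate 2) of 1 pregnancy, with no treatment or mutation named in the labels and sex not collected. It therefore holds no contrast between conditions, and what can be compared is gene with gene and pup with pup. Both pups carry the same donor identifier, and that they are separate animals rests on the sample descriptions.

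A miRNA finds its target messengers mainly through its seed, the bases near its 5′ end, so genes with the same seed are treated as a family. The miR-99/100 family is known for restraining mTOR and insulin-like growth factor receptor signalling. miR-125 is the vertebrate counterpart of worm lin-4, which acts beside let-7 in developmental timing, and in mouse blood miR-125 genes are known for enlarging the stem cell pool. The let-7 family accumulates as cells differentiate and is held back by LIN28 in fetal progenitors.

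The mature 5′ sequences show which genes can be told apart by their reads. All 7 loci had an entry in the RefSeq miRNA table (build GRCm38.p6), with Mirlet7e standing in for Gm25927. Capitals mark the seed, bases 2 to 8 from the 5′ end.
miR-99a-5p: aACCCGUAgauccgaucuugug
miR-100-5p: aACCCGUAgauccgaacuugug
miR-99b-5p: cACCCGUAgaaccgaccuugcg
miR-125a-5p: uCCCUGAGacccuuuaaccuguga
miR-125b-5p: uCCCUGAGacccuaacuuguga
let-7e-5p: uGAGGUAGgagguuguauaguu

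The 3 members of the first group share the seed ACCCGUA, and the miR-125 genes share CCCUGAG. miR-99a and miR-100 differ at 1 of 22 bases, U16A when read from miR-99a to miR-100 and counted from the 5′ end. miR-99b differs from miR-99a at 4 bases (A1C, U11A, U16C and U21C), all outside the seed. let-7e differs from let-7a at 1 base, G9U, just after the seed. The 2 miR-125b genes encode the same miR-125b-5p, and the identical run between their hairpins is 24 bases long. Their 3′ arms are related but can be told apart, with differences within the seed and after it, as shown here with the seed again in capitals.
miR-125b-1-3p: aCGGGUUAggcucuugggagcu
miR-125b-2-3p: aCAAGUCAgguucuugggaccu

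Among GENCODE miRNA genes, miR-125b-5p was the single 5′ sequence of the members found in more than 1 gene. The tables tallied reads with several genomic matches apart from the genes, and such reads made up 56.3% of replicate 1 and 57.5% of replicate 2. Reads ending within those 24 shared bases could thus be missing from Mir125b-1 and Mir125b-2, and their counts can understate miR-125b. The counts are per gene and do not separate the 5′ from the 3′ arm.

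The 3 loci differ in how far their genes lie apart. On chromosome 16, Mir99a (77598936 to 77599000, plus strand, GRCm38) and Mir125b-2 (77646273 to 77646343) lay in introns of the noncoding host gene Mir99ahg, with 47337 bases between their starts and Mirlet7c-1 only 721 bases after the start of Mir99a. On chromosome 9, Mir100 (41531425 to 41531504, plus strand) and Mir125b-1 (41581926 to 41582002) lay in introns of the noncoding gene 3110039I08Rik, 50501 bases apart, with Mirlet7a-2 between them. Mir100 also overlapped an exon of Gm48742 on the other strand, Mir125b-1 an exon of Gm28119, and Mir125b-2 an exon of C130023A14Rik. The chromosome 17 locus was compact, with Mir99b (17830188 to 17830257), Mirlet7e (17830352 to 17830444) and Mir125a (17830812 to 17830879) on the plus strand within 624 bases from first to last start. Mir99b lay in an intron and Mir125a overlapped an exon of Spaca6, a gene of sperm-egg fusion. Gm25927 (17830343 to 17830459) lies on the minus strand and covers all 93 bases of Mirlet7e.

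The deposited values are raw counts. The libraries held 3202488 counts on both strands of miRNA genes in replicate 1 and 1504777 in replicate 2, and levels are given as CPM, the usual scaling of counts to a common library total, taken here over these sums so that both strands share 1 denominator. At these depths a count of 0 allows up to 3 counts, or 0.937 CPM in replicate 1 and 1.99 CPM in replicate 2. Reads without molecular identifiers are not independent molecules, so intervals and limits cover counting error only. Errors of levels and ratios are SD over 2 libraries, which here are 2 littermates with 1 library each, so pup, dissection and library preparation cannot be told apart. The T-lineage markers, a fixed list of miRNA genes known from T cells, were all above 0 (4 of 4) and summed to 15.8% and 15.4% of counts. Most of that sum was Mir142, read opposite to Mir142b, the most abundant feature of both libraries at 12.1% and 11.9% of counts. Whether these genes are read only in T cells was not tested, so the sum is no measure of T-lineage content. Being above 0 does not establish the tissue, since heart markers were above 0 too.

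The miR-99/100 genes were the abundant members. Mir99a had 35746 counts in replicate 1 and 24051 in replicate 2, or 11162 and 15983 CPM, with a mean of 13572 ± 3409 CPM (SD, n = 2). Mir100 had 25969 and 16093 counts, or 8109 and 10695 CPM (mean 9402 ± 1828). Both ranked among the 32 highest features in either library, counting each strand of each gene as a feature, and Mir99a reached place 16 in replicate 2. Mir99b had 8048 and 5740 counts, or 2513 and 3815 CPM (mean 3164 ± 920.3), and was the lowest of the 3 in each library. In all 3 genes replicate 2 was the higher library.

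The let-7e locus came next and was nearly level between the pups. All reads at Gm25927 lay on its opposite strand, 3696 of 3696 in replicate 1 (95% Wilson interval 99.9 to 100%) and 1733 of 1733 in replicate 2 (99.8 to 100%), which is the strand of Mirlet7e. This amounted to 1154 and 1152 CPM, a mean of 1153 ± 1.72 CPM. The exact 95% counting intervals were 1117 to 1192 CPM in replicate 1 and 1098 to 1207 CPM in replicate 2. They are wider than this SD, which therefore understates the error of the level. The 6 other members had 0 counts on their opposite strand in both libraries. Of 304 genes with at least 10 counts in each library, 10 were read mostly on the opposite strand, and Gm25927 was the fourth most abundant of them, after Mir142b, Gm25301 and Gm24083. The Mirlet7e hairpin is shown with its 5′ and 3′ mature arms in capitals, since its counts appear in the tables only under the name of the gene on the other strand.
Mirlet7e hairpin: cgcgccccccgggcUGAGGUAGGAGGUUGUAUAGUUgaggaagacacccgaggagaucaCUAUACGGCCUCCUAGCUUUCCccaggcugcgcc

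The miR-125 genes were the least counted members. Mir125a had 2857 counts in replicate 1 and 1527 in replicate 2, or 892 and 1015 CPM (mean 953 ± 86.7). Mir125b-1 had 1248 and 565 counts, or 390 and 375 CPM (mean 383 ± 10.1). Mir125b-2 had 548 and 274 counts, or 171 and 182 CPM (mean 177 ± 7.76). In each library Mir125a stood above both miR-125b genes, and Mir125b-1 above Mir125b-2. How many miR-125b reads were set aside is not recorded per gene.

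The order of the 7 levels in CPM was the same in both libraries, and no neighbours in it overlapped. The closest neighbours were Mirlet7e and Mir125a, whose nearest values were 1152 and 1015 CPM, and Mir99a and Mir100, whose nearest values were 11162 and 10695 CPM. On the CPM scale Mir99a exceeded Mir100 by 1.44 ± 0.0834 times, and since both 5′ sequences are 22 bases long this ratio is the same per base of the 5′ sequence. Divided by the length of the annotated gene (65 and 80 bases), the ratio was 1.77 ± 0.103. The mismatches allowed in mapping are not given, so reads of these 2 miRNAs, 1 base apart, may have been assigned to the other gene or set aside as multimapping, which would alter both counts and their ratio. Mirlet7e exceeded Mir125a by 1.21 ± 0.112 times in CPM. Their 5′ sequences are 22 and 24 bases long, so per base of the 5′ sequence Mirlet7e also stood higher. Divided by the length of the annotated gene (93 and 68 bases), the order of these 2 turned, with a ratio of 0.888 ± 0.0821. The other places in the order were the same per annotated length.

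**Figure D1:**
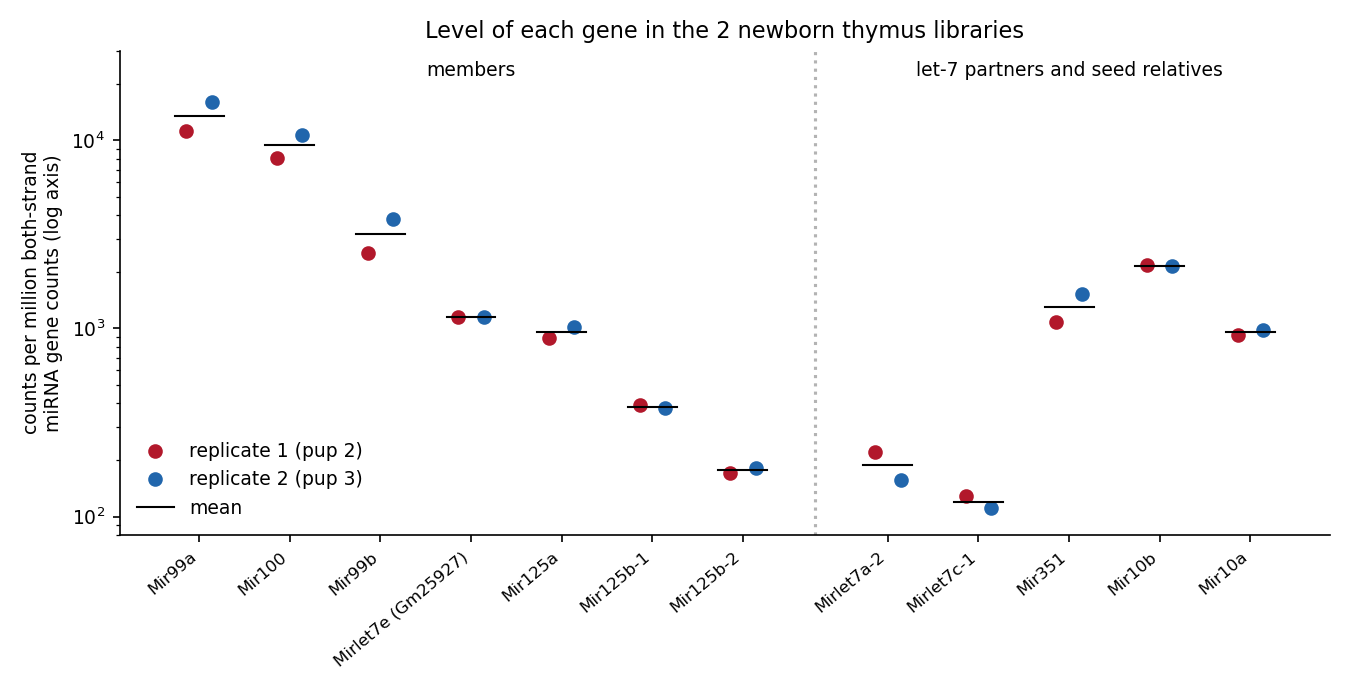
Level of each gene in CPM of both-strand counts (log axis) in replicate 1 and replicate 2, with the mean as a line. The 7 members fall from Mir99a to Mir125b-2 with no overlap between neighbours, and the 3 miR-99/100 genes are each higher in replicate 2.

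The 7 members together took 2.44% of counts in replicate 1 and 3.32% in replicate 2, a mean of 2.88% ± 0.624. Of the members' own counts, the miR-99/100 genes supplied 89.3% and 91.8%, the miR-125 genes 5.96% and 4.73%, and Mirlet7e 4.73% and 3.47%. The members' counted total was therefore mostly the total of Mir99a and Mir100. Since shared miR-125b-5p reads can be uncounted, the miR-125 share can be understated and the others overstated.

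Within each locus the miR-99/100 gene had more counts than the miR-125 gene, by very different factors. Mir99a had 65.2 counts for each count of Mir125b-2 in replicate 1 (exact 95% counting interval 59.95 to 71.1) and 87.8 in replicate 2 (77.9 to 99.2). Mir100 had 20.8 (19.7 to 22.04) and 28.5 (26.2 to 31.03) for each count of Mir125b-1. On chromosome 17 the ratio of Mir99b to Mir125a was 2.82 (2.70 to 2.94) and 3.76 (3.55 to 3.98). The first ratios rest on miR-125b genes whose shared 5′ reads can be uncounted, so they can overstate the difference, whereas both 5′ sequences of the chromosome 17 pair occur in 1 gene each.

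The let-7 gene of each locus also had fewer counts than the miR-99/100 gene. Mir99a had 86.97 counts in replicate 1 and 144 in replicate 2 for each count of Mirlet7c-1, and Mir100 had 36.7 and 68.8 for each count of Mirlet7a-2. Mir99b had 2.18 and 3.31 for each count of Mirlet7e. The 5′ arms let-7a and let-7c occur in 2 genes each, and let-7e in 1, so chromosome 17 again holds the genes without an identical 5′ copy elsewhere in the annotation, although let-7e is 1 base from let-7a. There Mir125a stood at 0.773 and 0.881 counts for each count of Mirlet7e.

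**Figure D2:**
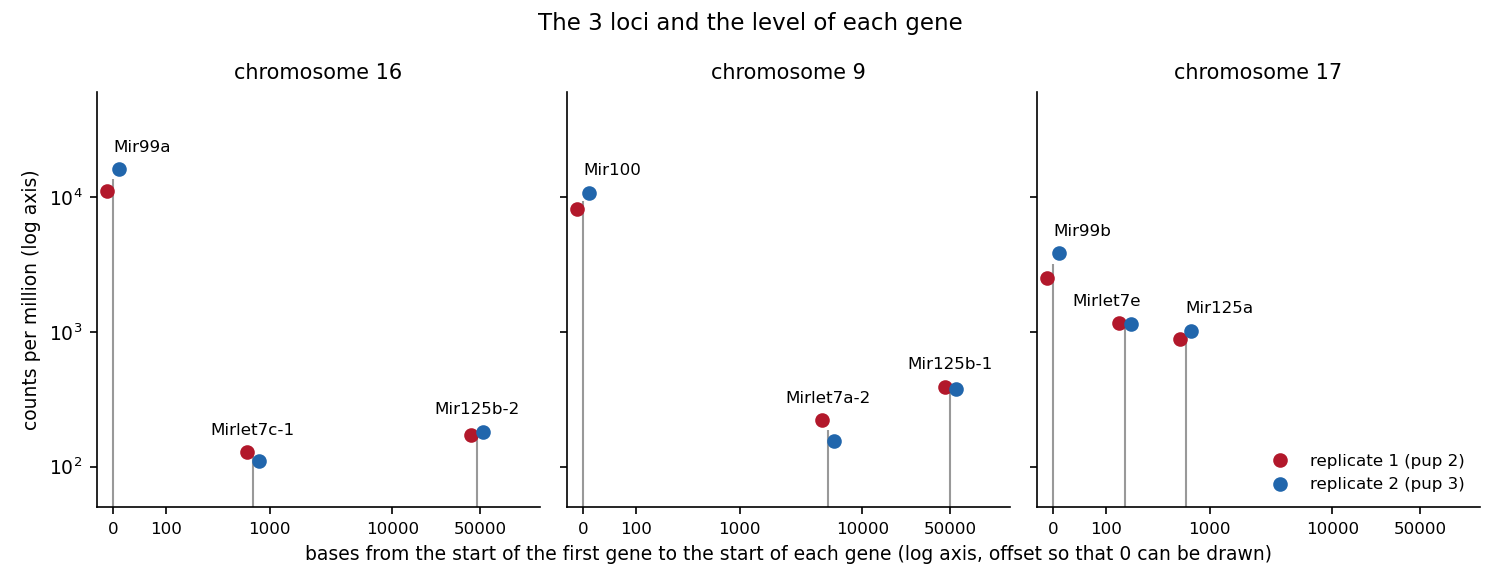
Each panel is a locus, with the distance in bases from the start of its first gene to the start of each gene on the x axis (log axis, offset) and CPM on the y axis (log axis). Points are the 2 libraries and grey stems the mean, and the genes of the chromosome 17 locus span 3815 to 892 CPM whereas those of chromosome 16 span 15983 to 111 CPM.

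The miR-99/100 genes of all 3 loci were lower in replicate 1 than in replicate 2. Counts were scaled with TMM in edgeR, and each of 305 features with at least 10 counts in both libraries was set against its counterpart in the other library with an exact binomial test (two-sided) and Benjamini-Hochberg adjustment at 0.05. The log2 ratio of replicate 1 over replicate 2 was -0.45 for Mir99a (exact 95% interval -0.48 to -0.43, adjusted exact binomial p = 2.38e-301). Mir100 had a log2 ratio of -0.33 (-0.36 to -0.31, adjusted exact binomial p = 1.75e-114) and Mir99b of -0.54 (-0.59 to -0.49, adjusted exact binomial p = 3.80e-99). These correspond to levels 1.37, 1.26 and 1.45 times as high in replicate 2.

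The other members were closer to equal. Mir125a was lower in replicate 1 with a log2 ratio of -0.12 (-0.21 to -0.03, adjusted exact binomial p = 0.0212), a call that was lost when features with as little as 1 count in both libraries or in either were included (adjusted exact binomial p = 0.205 and 0.268). Mirlet7e had a log2 ratio of 0.07 (-0.01 to 0.15), Mir125b-1 of 0.12 (-0.03 to 0.26) and Mir125b-2 of -0.02 (-0.24 to 0.19), and none of these 3 passed.

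All 7 members passed the filter on low counts, and 4 were called lower in replicate 1 and none higher. Over all 305 features tested, 43.3% were called, 20.3% (62) lower and 23.0% (70) higher in replicate 1 (77 lower and 53 higher when scaled to total counts alone), with a median log2 ratio of 0.02. The members' median was -0.12, and that of the 3 miR-99/100 genes was -0.45. Among the 93 features with a mean of at least 1000 CPM, a limit chosen after the values were seen, 2 had a lower log2 ratio than Mir99b (Mir411 and Mir423), 3 a lower one than Mir99a and 7 a lower one than Mir100. These tests set 1 library against 1 by counting error and have no replicate check. An exact negative binomial test in edgeR used a biological coefficient of variation of 0.150, which was itself estimated from the differences between these 2 libraries. It is therefore no independent replicate check, and few calls were to be had from it by construction. It called 1 of 305 features (0.328%), the heart gene Mir208b. No member was among the 15 features at an unadjusted p under 0.05, and the adjusted exact negative binomial p was 1 for each member.

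**Figure D3:**
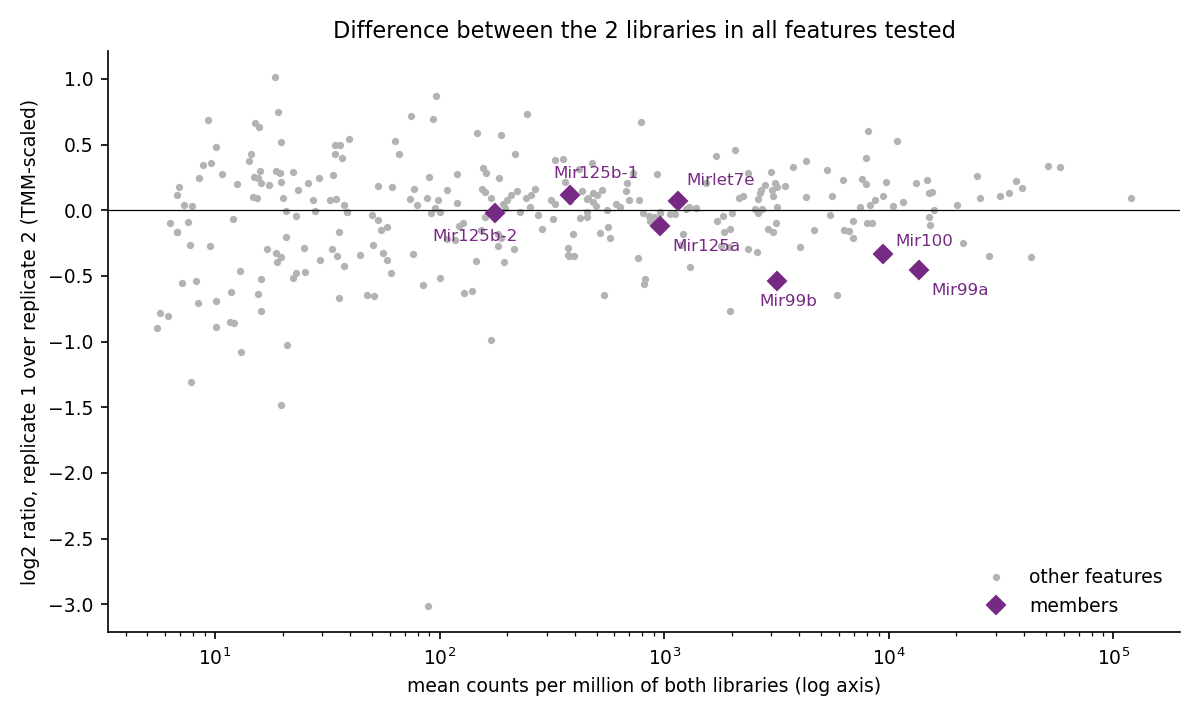
Log2 ratio of replicate 1 over replicate 2 (TMM-scaled) against mean CPM (log axis) for the 305 features tested, with the members as diamonds. Mir99a, Mir100 and Mir99b lie at -0.45, -0.33 and -0.54, below most features of at least 1000 CPM, and the other members lie between -0.12 and 0.12.

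The same counts also give ratios inside each library, where scaling between libraries plays no part. Such ratios are no separate evidence of the difference between the libraries. The ratio of the miR-99/100 gene to the miR-125 gene in replicate 1 was 0.743 times that in replicate 2 on chromosome 16, 0.731 times on chromosome 9 and 0.749 times on chromosome 17, and the counting intervals of the libraries did not overlap at any of these loci. Against the let-7 gene of the locus, the corresponding values were 0.604, 0.534 and 0.657, again without overlap. These values also carry the let-7 genes' own log2 ratios, 0.27 for Mirlet7c-1, 0.57 for Mirlet7a-2 and 0.07 for Mirlet7e. Between loci, the miR-99/100 genes kept closer proportions than in the ratios above, although the counting intervals of the libraries did not overlap. The ratio of Mir99a to Mir99b was 4.44 in replicate 1 and 4.19 in replicate 2, and that of Mir100 to Mir99b 3.23 and 2.80. Such closeness was not particular to them. Mir125b-1 to Mir125b-2 was 2.28 and 2.06, and Mir10b to Mir10a 2.34 and 2.17, both with overlapping intervals. Mir125a to Mir125b-1 was 2.29 and 2.70, without overlap. On chromosome 17, the ratio of Mir125a to Mirlet7e in replicate 1 was 0.877 times that in replicate 2. With 1 library per pup, these ratios have no error beyond counting.

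**Figure D4:**
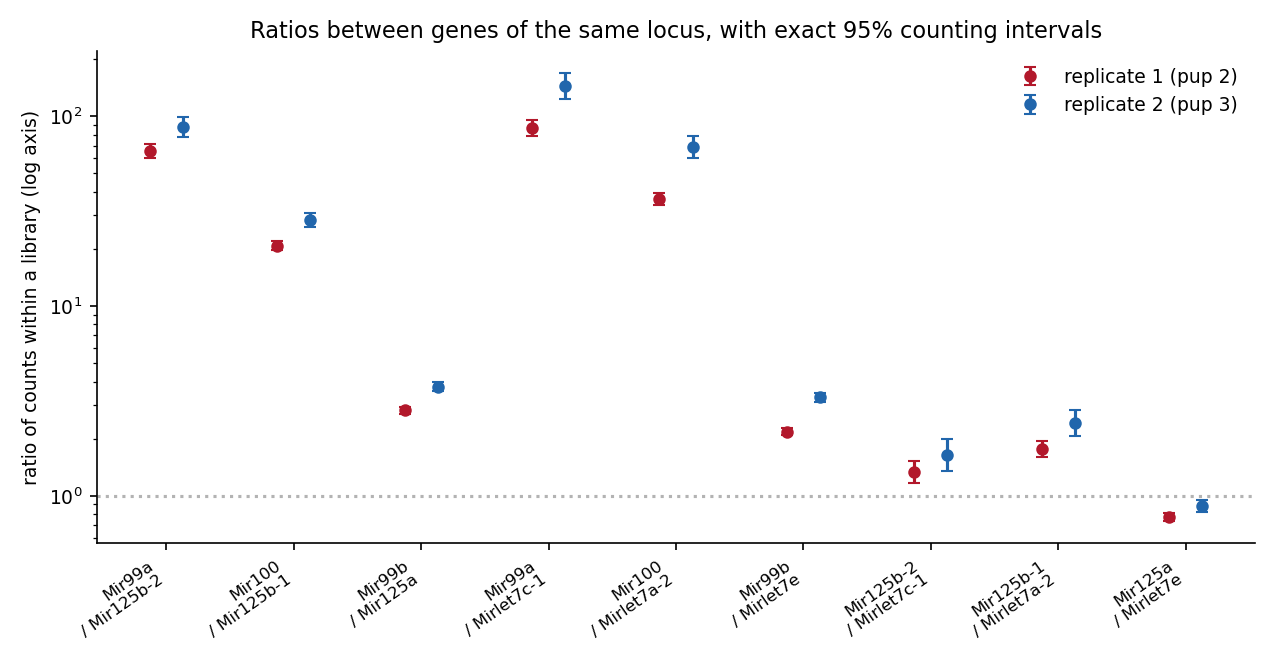
Ratios of counts between genes of the same locus (log axis) in replicate 1 and replicate 2, with exact 95% counting intervals as bars. In all 9 pairs the ratio is higher in replicate 2, and the intervals overlap only for Mir125b-2 over Mirlet7c-1. The ratios of a locus share its genes, so the pairs are not independent of one another.

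Markers of the cell types in the organ also differed between the libraries. The T-lineage markers summed to 157539 CPM in replicate 1 and 154340 CPM in replicate 2, with 3 of 4 called higher and 1 lower in replicate 1. The mesenchymal markers Mir143 and Mir145a (2 of 2 above 0) summed to 38325 CPM in replicate 1 and 50889 CPM in replicate 2. Both were called lower in replicate 1, but not alike. Most of the sum was Mir143 (36702 and 49090 CPM), with a log2 ratio of -0.35, whereas that of Mir145a was -0.08. The endothelial marker Mir126a had 23947 and 31954 CPM and was called lower in replicate 1 with a log2 ratio of -0.35. The epithelial markers (6 of 6 above 0) summed to 30739 and 31891 CPM, with 1 called higher, 3 lower and 2 not passing. Of 3 heart markers, all above 0, the sum was 30.6 CPM in replicate 1 and 257 CPM in replicate 2. The skeletal muscle markers summed to 380 and 379 CPM, with Mir133a-1 and Mir1a-1 at 0. Reads with several genomic matches are not counted in genes, so a count of 0 need not mean absence. The erythroid markers (2 of 2 above 0) summed to 197 and 144 CPM, and the myeloid marker Mir223 had 785 and 675 CPM. Their part in the difference of the miR-99/100 genes was not tested. In whole tissue, fewer cells of a type and less RNA per cell cannot be told apart.

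Genes related to the members by sequence did not all share the difference. Mir351, which lies on chromosome X and shares the miR-125 seed (miR-351-5p is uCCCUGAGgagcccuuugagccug), had 1083 CPM in replicate 1 and 1526 CPM in replicate 2 and was called lower in replicate 1 with a log2 ratio of -0.43. It was the most counted gene of the CCCUGAG seed, ahead of Mir125a, and supplied 42.7% and 49.3% of that seed's counts. Since shared 5′ reads of Mir125b-1 and Mir125b-2 can be uncounted, this place and share of Mir351 can be overstated. The other 2 genes of this seed, Mir6367 and Mir6394, had 0 counts in both libraries. No mouse gene of the table other than Mir99a, Mir99b and Mir100 carried the ACCCGUA seed.

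Within the let-7 seed, Mirlet7e held seventh place among 14 genes, with 1.08% and 1.17% of that seed's counts. The let-7a and let-7c genes, whose 5′ sequences occur in 2 genes each, can be undercounted, so this place and share can be overstated. Mirlet7g led with 63217 and 52761 CPM. The partners of the other loci, Mirlet7a-2 (221 and 156 CPM) and Mirlet7c-1 (128 and 111 CPM), stood below Mirlet7e, with the limit that their 5′ sequences are shared with other genes. Mirlet7a-2 was called higher in replicate 1 with a log2 ratio of 0.57, and Mirlet7c-1 did not pass (0.27).

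The miR-10 genes, which lie in the Hox gene clusters, have another seed but a related sequence: miR-10a-5p (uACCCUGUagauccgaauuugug) holds a stretch of 11 bases in common with miR-100-5p, which starts inside the seed of each, at base 7 of miR-10a-5p and base 6 of miR-100-5p. Mir10b had 2175 and 2138 CPM and Mir10a had 929 and 984 CPM in replicate 1 and replicate 2. Mir10a lay near Mir125a (892 and 1015 CPM), whereas Mir10b lay below Mir99b (2513 and 3815 CPM), most of all in replicate 2. Neither miR-10 gene was called lower in replicate 1. Mir10b was called higher with a log2 ratio of 0.09, and Mir10a did not pass (-0.02).

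By distance of log2 CPM over the 2 libraries, the 3 features nearest to Mir99a were Mir15a (distance 0.36) and Mir16-1 (0.37), neighbouring genes known for restraining the cell cycle, and Gm25301 on its opposite strand (0.46), and those nearest to Mir100 were Mir205 (0.26), Mirlet7b (0.31) and Mir30d (0.32). With 2 libraries this likeness is almost wholly one of level.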

How the data were processed

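The build was mm10 and the annotation GENCODE M4, per the text files deposited with the tables, and the aligner and counter are not given in the sources used. The deposited tables hold raw counts per miRNA gene on both strands, the gene strand and the opposite strand, not pooled or normalized. Unmapped, multimapping and unassigned reads stayed out of library sizes (10.6%, 56.3% and 2.99% of replicate 1, and 9.17%, 57.5% and 2.57% of replicate 2). Of 1973 identifiers, 1894 matched GENCODE M21 (GRCm38), a later release, for symbols and positions.

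CPM is counts over the both-strand total. Features were each strand of each gene with at least 10 counts in both libraries. TMM scaling and the negative binomial test used edgeR 4.0.16 (R 4.3.3), and the binomial test and exact intervals used scipy 1.17.1. The binomial test was tried on simulated counts with counting error alone, so spread between pups was no part of that trial. DESeq2 1.42.0 size factors were an alternative. edgeR's quasi-likelihood test was not used, since 1 group gives no group term. The members, lists, named genes and alternatives were chosen with earlier results of these data known. Named were the members, their let-7 partners, genes of the same seed, the miR-10 genes, fixed cell type markers and the nearest features.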

Additional observations from a re-analysis of the deposited data

How the results depend on the processing

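The order of the 7 levels was the same with every denominator tried (6 members over gene-strand counts alone), with unstranded counts and in each library alone, and per annotated length 5 of 7 kept their place. Over all reads of the tables instead of miRNA gene counts, the members' share was 0.878%. Leaving out 1 library gave a share of 2.44 to 3.32% and locus ratios of 65.2 to 87.8 (Mir99a over Mir125b-2), 20.8 to 28.5 (Mir100 over Mir125b-1) and 2.82 to 3.76 (Mir99b over Mir125a). The binomial test called 120 to 133 features under its alternatives and 132 as reported, whereas the negative binomial test, whose spread comes from the same 2 libraries, called 1. Scaled to total counts alone, 53 features were called higher and 77 lower in replicate 1, against 70 and 62 as reported. Mir99a, Mir100 and Mir99b were called lower in replicate 1 in 7 of 8 alternatives, all but the negative binomial test, at log2 ratios of -0.52 to -0.42, -0.40 to -0.30 and -0.60 to -0.50. Mir125a was called in 5 of 8, and Mir125b-2 turned sign at 0.011 with features of 1 count in both libraries or in either, where it was not called either way. The cause of these shifts was not tested. No paired analysis was possible because the study has 1 group. Depth limits Mir125b-2 most among the members, at 548 and 274 counts.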

Other observations

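Gm25927 was not alone in carrying the reads of a miRNA gene on its other strand. Of the 10 genes read mostly on the opposite strand, each had an annotated miRNA gene on that strand, among them Mir378a at Gm25301 (11595 CPM in replicate 1 and 11623 CPM in replicate 2), Mir191 at Gm24083 (10228 and 9221 CPM) and the let-7 gene Mirlet7f-1 at Gm24111 (97.7 and 103 CPM). In 8 of the 10, Gm25927 included, no read lay on the gene's own strand in either library, and 272 of the 304 genes with at least 10 counts had no read on the opposite strand.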
